A study of Mus musculus with 49 samples.

Results

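The Toll-like receptors are the family of membrane sensors with which macrophages detect microbial products. The genes described here are Tlr1, Tlr2, Tlr3, Tlr4, Tlr6, Tlr7, Tlr8, Tlr9 and Tlr13, with Cd14, the co-receptor that hands lipopolysaccharide (LPS) to TLR4. These 10 genes were taken by name from the 14896 genes of the macrophage table, and all 10 passed the filter that left 12058 genes for testing (a value of at least 1 in at least 3 libraries, in CPM, a gene's reads scaled to a common library total). They were followed in 18 mRNA libraries of bone marrow-derived macrophages from C57BL/6 mice, wild type (WT) or knockout (KO) for Elf4, an X-linked gene for an ETS-family transcription factor. The marrow cells were grown for 7 days with M-CSF and collected untreated (0 h) or after 4 h or 16 h of LPS at 100 ng/ml, with 3 libraries for each genotype and time. Levels in CD4 T cells of the same strain are given at the end: naive cells labelled KO or WT, naive cells with the Elf4 W250S substitution or WT, and W250S or WT cells collected at 48 h of Th17 differentiation. The pathogenic Th17 cells received IL-6 with IL-23 and IL-1b, and the non-pathogenic ones IL-6 plus TGF-beta. How the KO allele was made is not given in the sources used here. Each macrophage library carries its own mouse number in the file header, which read literally makes the 3 times different animals. Libraries of the same genotype and replicate number nevertheless correlated between 0 h and the later times (r = 0.0566 to 0.533), so whether the times share animals or cultures is not settled. The main fit treats all libraries as independent, and replicate blocks were run as alternatives.

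As background, TLR1, TLR2, TLR4 and TLR6 sit at the cell surface. TLR2 pairs with TLR1 or TLR6 to bind bacterial lipopeptides, and TLR4 with its partner MD-2 binds LPS, the agent added in this study. TLR3, TLR7, TLR8, TLR9 and TLR13 are endosomal sensors of nucleic acids: double-stranded RNA for TLR3, single-stranded RNA for TLR7, unmethylated CpG DNA for TLR9 and bacterial ribosomal RNA for TLR13. Signals pass through the adaptor MyD88, or TRIF in the case of TLR3 and of endocytosed TLR4, to NF-kappaB and interferon regulatory factors, and macrophages change the expression of the receptors themselves during the response.

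Stretches of promoter are shown for the members whose start region holds a match to a motif of these pathways. RefSeq promoter sequences (GRCm38.p6) were matched by symbol for 7 of the 10 members, giving 9 windows of the 250 bases before an annotated start. They were searched on both strands for an interferon-response motif (GAAA, any 2 bases, GAAA), the ETS-type motif CCGGAAG and the kappaB motif. Matches are in capitals, flanked by neighbouring bases, and each sequence is read 5′ to 3′ on the minus strand, on which all 4 genes lie.
Tlr2, chr3:83841762-83841790, kappaB: aggacacctGGGGAATTCCCacacggagc
Tlr3, chr8:45410572-45410601, kappaB: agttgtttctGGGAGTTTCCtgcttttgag
Tlr6, chr5:64959260-64959289, interferon-response, opposite strand: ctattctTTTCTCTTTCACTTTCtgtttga
Tlr1, chr5:64932889-64932917, ETS-type: cagagatgcaaCCGGAAGgcatacacgtg
The Tlr2 match, whose core reads alike on both strands and which holds 3 overlapping matches, begins 173 bases before the start used for its window. The Tlr3 match begins 211 bases before the start used for its own window. All 4 printed stretches lie inside the annotated gene. The upstream end of the gene is at 83841824 for Tlr2, 45411075 for Tlr3, 64970942 for Tlr6 and 64933600 for Tlr1. In Tlr6, 2 overlapping matches lie between 116 and 101 bases before 1 of the 2 starts with a window. The Tlr1 match lies 207 bases before 1 of the 2 starts with a window. The kappaB motif was found in 7.25%, the interferon-response motif in 2.98% and the ETS-type motif in 6.91% of all 32851 promoter windows of this length. The windows of Tlr8, Tlr9 and Tlr13 held none of these letters. A match describes the sequence and no binding was measured in macrophages.

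The labels were checked first. Elf4 stood at 96.4 to 112 CPM in the untreated WT libraries and at 19.1 to 25.5 CPM in the KO libraries, and it was lower in KO at every time, by -2.22 ± 0.11 (log2 change ± SE), -1.95 ± 0.11 and -2.12 ± 0.11 at 0, 4 and 16 h (limma adjusted p = 2.21e-09, 1.89e-08 and 4.56e-09). The 7 macrophage markers summed to between 12493 and 29826 CPM in every library. Ly6g, Siglech, Cd3e and Cd3d, defining markers of neutrophils, plasmacytoid dendritic cells and T cells, have no row in the table, and the 3 B cell markers summed to at most 1.09 CPM. Other markers of these cells had rows. At 0 h the 5 listed neutrophil markers summed to 1.91 to 3.2 CPM in WT and 3.74 to 12 CPM in KO. The monocyte markers Ly6c2 and Ccr2 summed to 14.2 to 24.7 CPM in WT and 19.9 to 42.7 CPM in KO at 0 h. Monocyte sums overlapped between genotypes at every time. Cd4 ranged from 1.98 to 25.2 CPM. The 7 stromal markers (collagens and others) reached higher sums in KO cultures, with overlap: 346 to 623 CPM in WT and 491 to 1551 CPM in KO at 0 h, 269 to 474 and 389 to 1211 CPM at 4 h, and 493 to 916 and 834 to 2675 CPM at 16 h. The highest value at each time was in KO replicate 2. At 16 h the macrophage marker sum was 18871 to 20289 CPM in WT and 24130 to 29826 CPM in KO. The part of these cell markers in the differences below was not tested, and values without KO replicate 2 are given where they bear on a result. In bulk libraries, fewer cells of a type and less RNA per cell cannot be told apart.

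LPS changed the transcripts of all 10 members in WT macrophages within 4 h. Those of the lipopeptide receptors, Tlr3, Tlr7, Tlr9 and Cd14 rose (7 genes), while those of Tlr4, Tlr8 and Tlr13 fell (3 genes). Among all tested genes, 15.6% rose and 71.3% fell at 4 h, with a median log2 change of -0.81, so CPM place most genes lower after LPS. The median of the 10 members was 1.15. With libraries rescaled by median ratios the median of all genes moved up by 0.80, the calls became 4303 up and 4454 down in place of 1876 and 8593, and Tlr8 was the 1 member whose direction turned (0.46 ± 0.15, limma adjusted p = 0.011). At 16 h the median of all genes was -0.41 and moved up by 0.42, and the calls went from 2203 up and 6818 down to 4054 and 4041. Set against the median of all genes at 4 h, Tlr3 stood at 4.71, Tlr2 at 4.25, Tlr8 at 0.36, Tlr4 at -0.49 and Tlr13 at -2.20. Directions that turn with the scale are given with both scales.

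Tlr2 had the steepest transient rise among the surface receptors. Its level was 79.1, 95.4 and 92.1 CPM in untreated WT replicates 1 to 3, 1014, 958 and 945 CPM at 4 h, and 116, 104 and 112 CPM at 16 h. All 4 h libraries lay far above the others, and the 16 h libraries lay just above the untreated ones. The log2 change was 3.44 ± 0.10 at 4 h and 0.32 ± 0.10 at 16 h (limma adjusted p = 4.06e-15 and 0.0105), and the 16 h call was lost without WT 0 h replicate 1 (adjusted p = 0.0668). With median-ratio scaling the 16 h change of Tlr2 was larger, 0.78 ± 0.10 (limma adjusted p = 2.41e-06). Its partner genes followed other courses. Tlr1 went from 45.7, 45.6 and 47.8 CPM to 183, 163 and 173 CPM at 4 h and to 240, 243 and 233 CPM at 16 h. Its changes against 0 h were 1.88 ± 0.10 and 2.34 ± 0.10 on the CPM scale, and 2.78 ± 0.13 and 2.79 ± 0.13 with median-ratio scaling. A further rise of Tlr1 from 4 h to 16 h was thus seen in CPM alone, and these 2 times were not tested against each other. Tlr6 went from 14.5, 16.9 and 14.4 CPM to 51.2, 48.3 and 48.9 CPM at 4 h and to 38.7, 37.7 and 32.9 CPM at 16 h, changes of 1.64 ± 0.11 and 1.20 ± 0.11. For both genes neither LPS group overlapped the untreated group. The 3 genes of the TLR2 complexes thus stood at 5.15-fold (Tlr1), 2.39-fold (Tlr6) and 1.25-fold (Tlr2) of their untreated mean CPM at 16 h. With median-ratio scaling their order was the same, at log2 changes of 2.79 ± 0.13, 1.64 ± 0.12 and 0.78 ± 0.10.

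The LPS receptor gene itself fell. Tlr4 was at 222, 214 and 220 CPM in untreated WT cells, 88.8, 90.5 and 85.9 CPM at 4 h and 106, 95.9 and 105 CPM at 16 h. Every LPS library was below every untreated one, with log2 changes of -1.30 ± 0.07 and -1.09 ± 0.07, both called, and Tlr4 also fell with median-ratio scaling (-0.39 ± 0.08 and -0.63 ± 0.08). Cd14 moved the other way, from 410, 506 and 483 CPM to 1628, 1732 and 1649 CPM at 4 h and 1044, 959 and 1089 CPM at 16 h, changes of 1.84 ± 0.09 and 1.15 ± 0.09.

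Among the endosomal sensors, Tlr3 rose most and Tlr13 fell most at 4 h. Tlr3 was at 32.1, 25.7 and 25.9 CPM untreated, 459, 413 and 412 CPM at 4 h and 88.1, 77.5 and 84.7 CPM at 16 h, a 15.3-fold and then a 2.99-fold higher mean (log2 changes 3.90 ± 0.12 and 1.55 ± 0.12). Tlr13 was at 560, 503 and 469 CPM untreated, 70.1, 57.7 and 60.3 CPM at 4 h and 309, 269 and 296 CPM at 16 h. Its groups did not overlap at any pair of times: it fell by 3.01 ± 0.11 at 4 h and stood 0.81 ± 0.11 below the untreated level at 16 h on the log2 scale. With median-ratio scaling the 16 h change was smaller, -0.34 ± 0.13 (limma adjusted p = 0.0271). Tlr9 was at 23.1, 22.9 and 28.8 CPM untreated, 36, 44.5 and 38.9 CPM at 4 h and 56.3, 46.7 and 59.9 CPM at 16 h, rises of 0.66 ± 0.22 and 1.09 ± 0.22 (limma adjusted p = 0.00973 and 0.000216). Tlr9 was the member with the widest error.

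Tlr7 and Tlr8 are neighbouring genes on the X chromosome, and the size or direction of their changes depended on the scale. Tlr7 was at 323, 285 and 303 CPM untreated, 417, 405 and 391 CPM at 4 h and 275, 246 and 255 CPM at 16 h, a rise of 0.41 ± 0.12 at 4 h (1.32 ± 0.14 with median-ratio scaling, limma adjusted p = 1.78e-07) and a difference of -0.23 ± 0.12 at 16 h that was not called and turned to 0.23 ± 0.14 with median-ratio scaling (limma adjusted p = 0.00426, 0.0951 and 0.165). Tlr8 was at 318 ± 14.8 CPM untreated (mean ± SD, n = 3, highest 330), 260, 214 and 225 CPM at 4 h and 422, 377 and 386 CPM at 16 h. On the CPM scale Tlr8 fell by 0.45 ± 0.13 at 4 h, while median-ratio scaling gave a rise of 0.46 ± 0.15. At 16 h it rose by 0.31 ± 0.13 on the CPM scale (limma adjusted p = 0.0355) and by 0.78 ± 0.15 with median-ratio scaling; the CPM call was lost without WT 0 h replicate 2 or 3 or WT 16 h replicate 1 or 3 (adjusted p = 0.104, 0.0624, 0.116 and 0.0578). At 16 h, 7 of the 10 members were called up and 2 down in WT cells, against 18.3% and 56.5% of all genes.

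**Figure D1:**
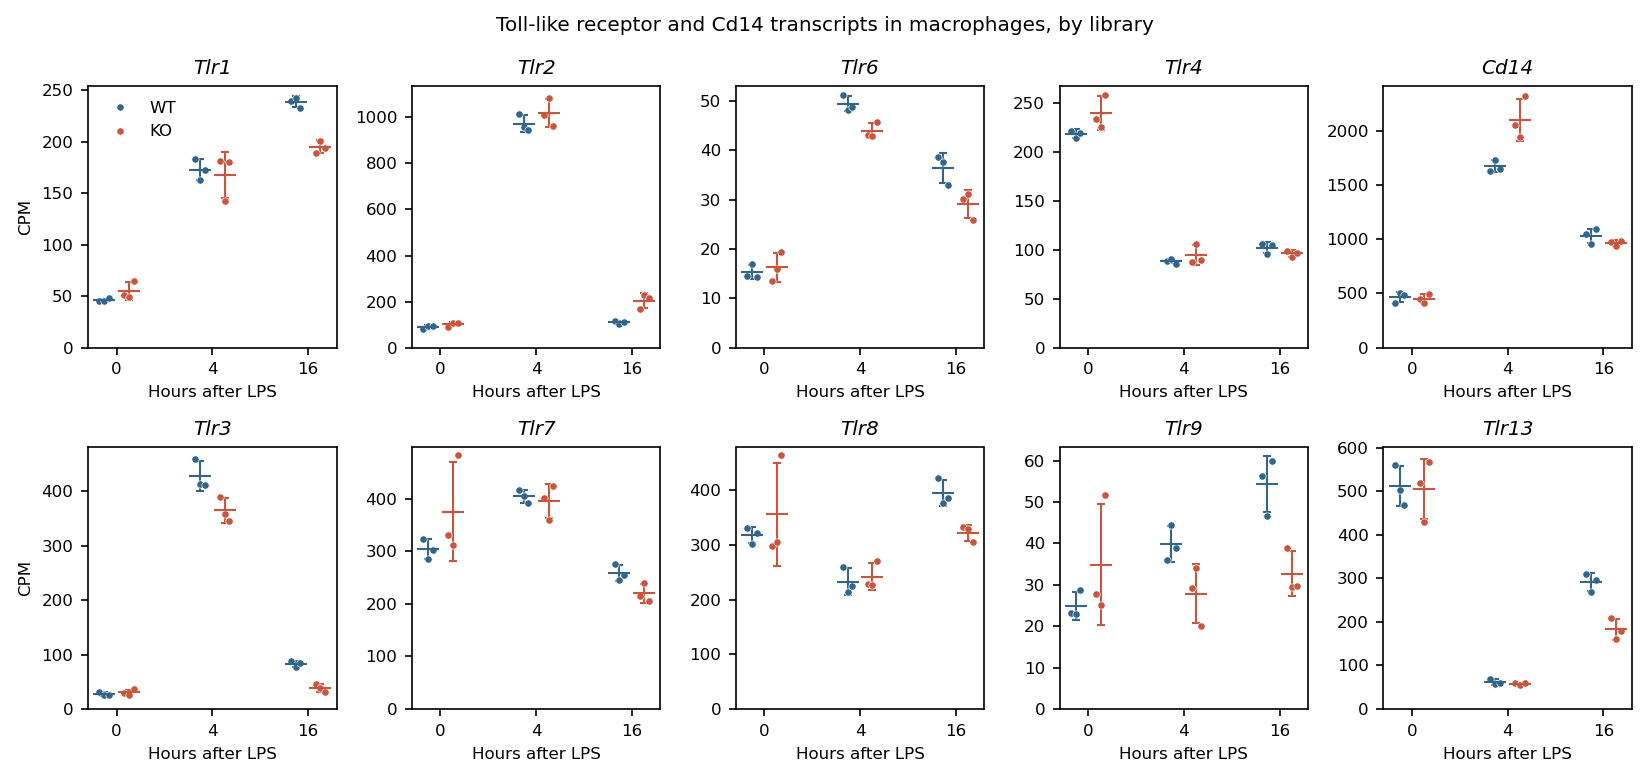
CPM of the 10 members (1 panel each, axis from 0) at 0, 4 and 16 h of LPS; points are libraries of WT (blue) and Elf4 KO (red) macrophages, with the mean and SD of 3. Tlr2 and Tlr3 peak at 4 h, Tlr1 is highest at 16 h, Tlr13 is lowest at 4 h, and the KO points lie apart from WT mainly at 16 h, above for Tlr2 and below for Tlr3, Tlr9 and Tlr13.

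The response of KO macrophages at 4 h was compared next. Of the 10 members 5 rose (15.6% of all genes) and 3 fell (70.8% of all genes), and Tlr7 (0.10 ± 0.12) and Tlr9 (-0.28 ± 0.22) were not called, though median-ratio scaling gave rises for both (0.96 ± 0.14 and 0.55 ± 0.22, limma adjusted p = 1.09e-05 and 0.032). That scaling moved the median of all genes by 0.76 and made the calls 4250 up and 4451 down. The log2 rises of Tlr2 (3.31 ± 0.10), Tlr3 (3.52 ± 0.12), Tlr1 (1.60 ± 0.10), Tlr6 (1.39 ± 0.11) and Cd14 (2.22 ± 0.09) and the falls of Tlr4 (-1.34 ± 0.07) and Tlr13 (-3.08 ± 0.11) stood beside the WT values above. Tlr8 fell by 0.53 ± 0.13 on the CPM scale, and stood at 0.33 ± 0.15 with median-ratio scaling (limma adjusted p = 0.0606). The test of the difference itself, the KO effect at 4 h minus that at 0 h, called 0 of 10 members up (0% of all genes) and 0 down (0.00829% of all genes). That test called 1 gene of 12058 in all, where 874 had an unadjusted limma p below 0.05. Tlr9 had the largest such difference, -0.94 ± 0.31 (limma adjusted p = 0.376).

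By 16 h the KO cells departed from WT. Of the members 5 stood above their untreated level (17.8% of all genes rose) and 3 below (50.1% of all genes fell); with median-ratio scaling, which moved the median by 0.32, the calls over all genes were 3761 up and 3525 down and those of the members again 5 and 3. Tlr2 was still at 0.98 ± 0.10 above its untreated level in KO cells, against 0.32 ± 0.10 in WT. Tlr3 was at 0.33 ± 0.12 in KO against 1.55 ± 0.12 in WT, Tlr13 at -1.45 ± 0.11 against -0.81 ± 0.11, and Tlr9 at -0.03 ± 0.22 (0.31 ± 0.22 with median-ratio scaling, neither called) against 1.09 ± 0.22. Tlr7 fell by 0.74 ± 0.12 in KO, while the same change in WT, -0.23 ± 0.12, was not called; the difference between these changes was -0.51 ± 0.17 (limma adjusted p = 0.0787, and 0.0431 with the genotype and replicate block). The Tlr3 call in KO was lost without KO 0 h replicate 1 or 2 and without KO 16 h replicate 1 or 2 (limma adjusted p = 0.0673, 0.146, 0.18 and 0.0588), and when these 2 groups were fitted alone (adjusted p = 0.114).

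**Figure D2:**
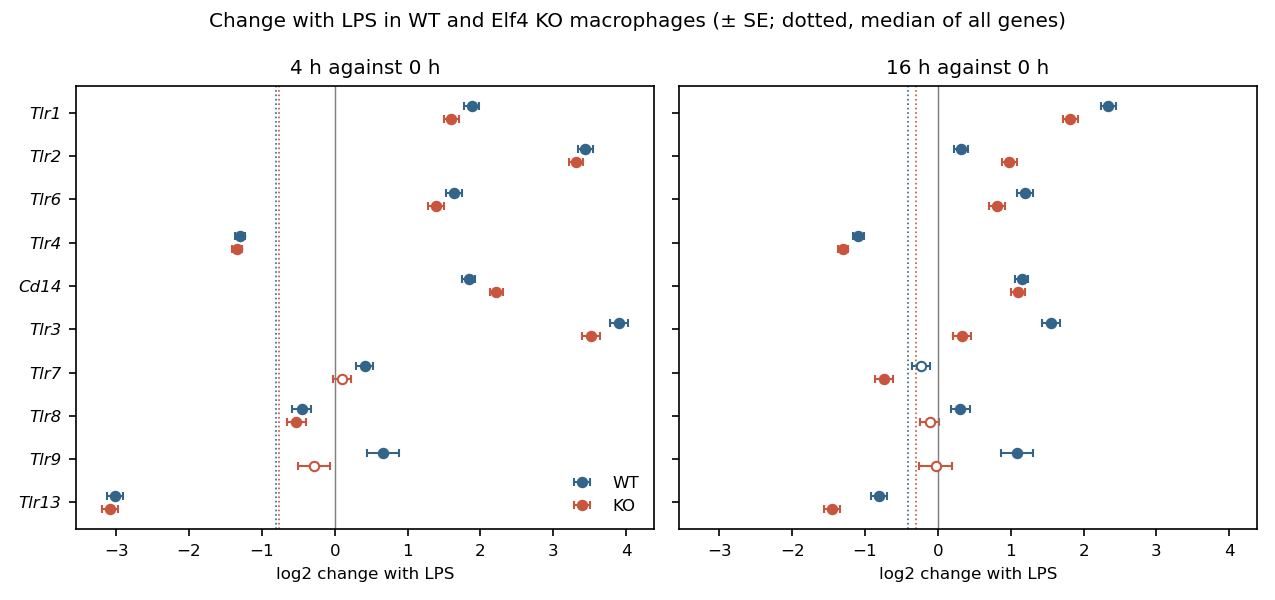
Log2 change of log2(CPM + 1) with LPS (x axis, ± SE) for each member (y axis) in WT (blue) and Elf4 KO (red) macrophages at 4 h and 16 h; filled points passed an adjusted p of 0.05, and dotted lines mark the median of all tested genes. The 2 genotypes lie close together at 4 h, and at 16 h KO lies to the right of WT for Tlr2 and to the left for Tlr3, Tlr9 and Tlr13.

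The direct comparison of KO with WT showed no called member before LPS. At 0 h, limma called 0 of 10 members up (0.141% of all genes) and 0 down (0.299%), where 1205 genes in all had an unadjusted p below 0.05. Of the members, Tlr1 (0.23 ± 0.10) and Tlr7 (0.28 ± 0.12) were among those 1205 (limma adjusted p = 0.44 and 0.444). KO replicate 3 stood above the other untreated libraries for 8 of the 10 members. It was at 483 CPM for Tlr7, 465 CPM for Tlr8 and 51.6 CPM for Tlr9, where KO replicates 1 and 2 were at 330 and 311, 298 and 305, and 27.9 and 25.2 CPM. It was also highest for the surface receptors Tlr1 (64.7 CPM), Tlr4 (259 CPM) and Tlr6 (19.4 CPM). Without it the differences were 0.10 for Tlr1, 0.078 for Tlr7 and 0.094 for Tlr9, where Tlr9 was 0.41 with it. Its macrophage marker sum, 24965 CPM, was also the highest at 0 h.

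At 4 h limma called 0 members up (2.38% of all genes) and 0 down (1.81%), where 2130 genes had an unadjusted p below 0.05. With median-ratio scaling 351 genes were called down in place of 218, and fewer were called up than the 287 on the CPM scale; at 0 h the calls were 6 up and 25 down in place of 17 and 36. Cd14 was nearest. Its KO libraries, at 2050, 1937 and 2316 CPM, were all above the WT libraries at 1628, 1732 and 1649 CPM, a difference of 0.33 ± 0.09 (limma adjusted p = 0.0547). It was called with a filter of 5 CPM (adjusted p = 0.047) and with either replicate block (0.0311 and 0.0467). Tlr9 was the other member with an unadjusted p below 0.05 (-0.53 ± 0.22, limma adjusted p = 0.206). Of the 10 members 4 had groups that did not overlap at 4 h, and 2 at 0 h, against 22.4% and 14.2% of all tested genes.

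At 16 h, 1 member was called up (20.9% of all genes) and 5 down (9.65%), and 8 of 10 had groups that did not overlap (48.7% of all genes). The median of the members was -0.29, where the median of all tested genes was 0.12. Rescaling by median ratios moved the median of all genes by -0.099 and the split of calls from 2520 up and 1163 down to 1536 and 1672, and left 1 member up and 5 down.

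Tlr2 was the member that rose. The KO libraries were at 167, 229 and 215 CPM and the WT libraries at 116, 104 and 112 CPM, with every KO library above every WT one and a mean 1.84-fold higher. The log2 difference was 0.86 ± 0.10 (limma adjusted p = 3.78e-05), and it was 0.77 without KO replicate 2, the culture with the most stromal RNA (adjusted p = 0.000343). The macrophage markers were also higher in KO at this time, as given above, and the neutrophil markers summed to 2.6 to 5.84 CPM in KO and 1.14 to 1.86 CPM in WT, with Ly6g unlisted; their part in the result was not tested. At 4 h, when Tlr2 was at its peak, KO libraries (1010, 1086 and 961 CPM) and WT libraries (1014, 958 and 945 CPM) overlapped.

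Tlr3 fell by the most. KO libraries were at 46.5, 39.1 and 32.1 CPM and WT libraries at 88.1, 77.5 and 84.7 CPM, so the mean of KO was 0.47 of the WT mean and the highest KO library was below the lowest WT library. The log2 difference was -1.08 ± 0.12 (limma adjusted p = 2.72e-05), and -1.09 without KO replicate 2. Markers of conventional dendritic cells, some of which carry TLR3, summed to 1.57 to 2.37 CPM in KO and 3.41 to 4.14 CPM in WT at 16 h. Of these markers Flt3, Clec9a, Zbtb46 and Cd209a were at no more than 0.262, 0.306, 0.448 and 0.557 CPM in any library, and Xcr1 reached 14.7 CPM. The part of such cells in the Tlr3 result was not tested. At the 4 h peak the KO libraries (390, 359 and 345 CPM) were also all below WT (459, 413 and 412 CPM), a difference of -0.23 ± 0.12 that was not called (adjusted p = 0.354).

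Tlr13 was at 209, 161 and 180 CPM in KO and 309, 269 and 296 CPM in WT at 16 h, without overlap, and the difference was -0.67 ± 0.11 (limma adjusted p = 0.000381). At 4 h its low level was 59.1, 56 and 59.9 CPM in KO and 70.1, 57.7 and 60.3 CPM in WT, which overlapped, so the genotypes overlapped at the time of the lowest level and not at 16 h. Tlr9 was at 38.9, 29.5 and 29.6 CPM in KO and 56.3, 46.7 and 59.9 CPM in WT at 16 h, again without overlap, a difference of -0.72 ± 0.22 (adjusted p = 0.0199). The plasmacytoid dendritic cell list, whose cells use TLR7 and TLR9, summed to 832 to 994 CPM in KO and 1067 to 1134 CPM in WT at 16 h, nearly all of it from Bst2 and Tcf4, and its part was not tested. Leaving out KO replicate 2 or 3, or WT replicate 1 or 3, ended the Tlr9 call (adjusted p = 0.0712, 0.0604, 0.0612 and 0.0724).

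The partner genes of Tlr2 were lower, not higher. Tlr1 was at 189, 201 and 194 CPM in KO and 240, 243 and 233 CPM in WT, a fall of 0.29 ± 0.10 (limma adjusted p = 0.0322). Tlr6 was at 30.1, 31.2 and 25.9 CPM in KO and 38.7, 37.7 and 32.9 CPM in WT, a fall of 0.32 ± 0.11 (adjusted p = 0.0389). In both genes the groups did not overlap. The Tlr1 call ended without any 1 of the 6 libraries of 16 h (adjusted p = 0.0544 to 0.0885). The Tlr6 call ended without KO replicate 1 or 3 or WT replicate 1 or 2 (adjusted p = 0.053, 0.143, 0.133 and 0.112).

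For 4 members no difference was called at 16 h. Tlr4 was at 99.3, 92.8 and 97.2 CPM in KO and 106, 95.9 and 105 CPM in WT (-0.08 ± 0.07), and Cd14 at 974, 937 and 987 CPM and 1044, 959 and 1089 CPM (-0.09 ± 0.09); both overlapped. Tlr7 (-0.24 ± 0.12, limma adjusted p = 0.149) and Tlr8 (-0.29 ± 0.13, adjusted p = 0.0928) had KO libraries all below WT, at 205 to 240 against 246 to 275 CPM and at 305 to 333 against 377 to 422 CPM. Both were called when the 2 groups were fitted alone (adjusted p = 0.0461 and 0.0139).

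**Figure D3:**
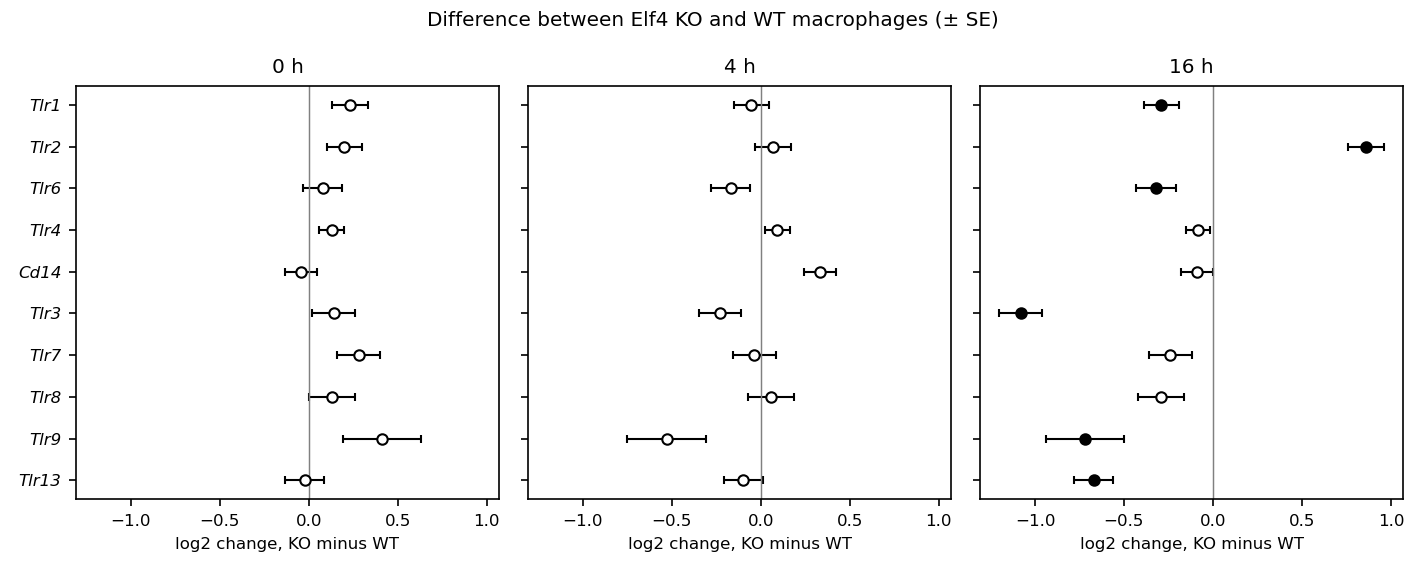
Log2 difference of log2(CPM + 1) between Elf4 KO and WT macrophages (x axis, ± SE) for each member (y axis) at 0, 4 and 16 h of LPS; filled points passed an adjusted p of 0.05. No point is filled at 0 h or 4 h, and at 16 h Tlr2 lies to the right at 0.86 and Tlr3, Tlr9, Tlr13, Tlr1 and Tlr6 lie to the left.

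Whether the KO effect changed with LPS was tested as the effect at 16 h minus that at 0 h. This called 1 member up (3.62% of all genes) and 4 down (2.83%); median-ratio scaling gave the same member counts and 205 up and 396 down over all genes in place of 437 and 341. Tlr3 changed by -1.23 ± 0.18 (limma adjusted p = 0.00129) and Tlr2 by 0.66 ± 0.15 (adjusted p = 0.0169). Tlr9 (-1.13 ± 0.31), Tlr13 (-0.65 ± 0.15) and Tlr1 (-0.52 ± 0.14) were also called (adjusted p = 0.0386, 0.0228 and 0.0359). Tlr3 was called in all 20 alternatives (adjusted p at most 0.0141) and Tlr2 in 19 of 20 (adjusted p = 0.0545 without WT 0 h replicate 2), while Tlr1 was called in 10, Tlr9 in 11 and Tlr13 in 14. Without KO 0 h replicate 3, the library that was highest for many members at 0 h, Tlr9 was -0.81 (adjusted p = 0.0709), Tlr13 had an adjusted p of 0.0505 and Tlr1 of 0.0712. Leaving out KO 16 h replicate 2, the culture with the most stromal RNA, also ended these 3 calls. The limma adjusted p was then 0.0902 for Tlr9, 0.0625 for Tlr13 and 0.0636 for Tlr1. The comparisons at 0 h and 16 h share no library, but all comparisons with 0 h share the untreated ones.

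The remaining Toll-like receptor genes were low in macrophages. Tlr5, the flagellin receptor, passed the filter and was at 1.37 to 2 CPM in untreated WT and 1.31 to 4.25 CPM in untreated KO libraries, and at most 0.23 CPM after LPS. It was called down with LPS in both genotypes at 4 h (limma adjusted p = 3.79e-05 in WT and 3e-07 in KO) and at 16 h (3.79e-05 and 1.95e-06). Tlr11 reached at most 0.32 CPM and Tlr12 at most 0.179 CPM.

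Other genes of the pathway were read from lists by role, against the 20.9% of all tested genes that rose, the 9.65% that fell and the 30.5% called in either direction at 16 h. Of the 15 accessory and trafficking genes 14 were tested, and at 16 h 3 were higher and 4 lower in KO, with a list median of -0.14 (all genes: 0.12); the share that rose was close to that of all genes (20.9%). Cd180, a surface relative of TLR4 that modulates its signals, fell at 4 h (167 ± 16.9 CPM in KO, 292 ± 6.21 CPM in WT, SD, n = 3) and at 16 h (103 ± 19.4 and 204 ± 10.4 CPM), with a log2 difference of -0.81 ± 0.12 at 4 h (limma adjusted p = 0.00189 and 3.45e-05). It was the 1 member of that list called at 4 h. Slc15a3, an endolysosomal peptide transporter, fell by 0.64 ± 0.13 at 16 h, whereas Hsp90b1, the chaperone of most Toll-like receptors, rose by 0.53 ± 0.11 and Cnpy4 by 0.46 ± 0.12.

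Of the 6 adaptors 5 were tested, and 0 rose (20.9% of all genes) and 3 fell (9.65%) at 16 h. Tirap, which bridges TLR2 and TLR4 to MyD88, was at 21.5 ± 0.361 CPM in KO and 32.1 ± 1.22 CPM in WT (log2 difference -0.55 ± 0.10). Ticam1, which encodes TRIF, was at 28.5 ± 2.88 and 39.7 ± 0.846 CPM (-0.47 ± 0.12), and Myd88 at 184 ± 8.98 and 217 ± 4.39 CPM (-0.24 ± 0.07). The list median was -0.32. No adaptor was called at 0 h or 4 h.

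Of the 18 kinases, ligases and factors, all were tested, and 2 rose (20.9% of all genes) and 4 fell (9.65%) at 16 h, with a list median of -0.13. The share called in either direction was close to the 30.5% of all genes. Irf5, a factor of MyD88 signalling, fell at 4 h (-0.28 ± 0.07) and at 16 h (-0.63 ± 0.07), and it was at 308 ± 14 CPM in KO and 373 ± 6.25 CPM in WT at 4 h. Irak3, the inhibitory kinase-like IRAK-M, rose at both times, and by more at 4 h (123 ± 14.1 CPM in KO, 64 ± 9.65 CPM in WT, 0.94 ± 0.11) than at 16 h (0.37 ± 0.11). Irak4 fell by 0.48 ± 0.11 and Map3k7, which encodes TAK1, rose by 0.37 ± 0.08 at 16 h. No other gene of that list was called at 4 h.

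Among 15 cytosolic and C-type lectin sensors, all tested, 1 rose (20.9% of all genes) and 5 fell (9.65%) at 16 h, with a list median of -0.18. The RNA sensor genes Ifih1 (243 ± 30 CPM in KO, 380 ± 13.6 CPM in WT) and Ddx58 (381 ± 38.6 and 549 ± 4.24 CPM) fell by 0.65 ± 0.17 and 0.53 ± 0.14. Aim2, a DNA sensor, and Nod2, a peptidoglycan sensor, each fell by 0.59. At 4 h the 1 call was Sting1, the adaptor of cytosolic DNA sensing (-0.59 ± 0.09). At 0 h no gene of the 4 lists was called.

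**Figure D4:**
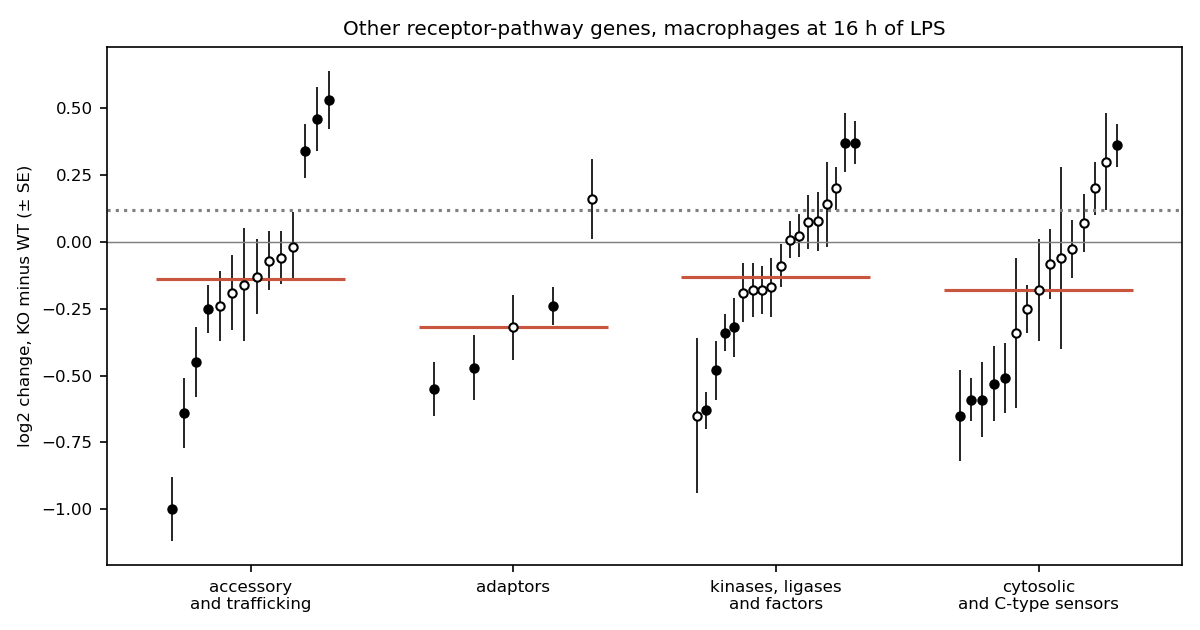
Log2 difference between Elf4 KO and WT macrophages at 16 h of LPS (y axis, ± SE) for every tested gene of the 4 lists (x axis, sorted within a list); filled points passed an adjusted p of 0.05, red lines are list medians and the dotted line is the median of all tested genes. The 4 list medians lie between -0.13 and -0.32, below the dotted line at 0.12, and each list has filled points below 0.

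Over the 18 libraries, the genes whose log2(CPM + 1) followed each member most closely were, as a description, among 9318 genes compared, Trim21, Tor1aip2 and Fndc3a for Tlr3 (Pearson r = 0.997, 0.996 and 0.996) and Exoc3l4, Rnd3 and Stx6 for Tlr2 (0.990, 0.987 and 0.987). For Tlr13 they were Wipf1, Fgd4 and Cd84 (0.992, 0.991 and 0.990), for Tlr1 Ms4a4c, C3 and Mvp (0.993, 0.992 and 0.991), and for Cd14 Junb, Zfand5 and Nfkb2 (0.992, 0.991 and 0.988). Tlr4 was followed by Slc16a7, Snx5 and Scarb2 (0.987 each) and Tlr6 by Casp4, Cd47 and Nfkbie (0.988, 0.988 and 0.986). Tlr7 (Erbin, Rbm41 and Prr5l; 0.943, 0.927 and 0.922), Tlr8 (Mpeg1, Itm2b and Cd33; 0.933, 0.927 and 0.917) and Tlr9 (Tmem140, Rftn1 and Pde7b; 0.838, 0.836 and 0.793) had no gene as close. These 18 points fall into 6 groups that share a genotype and time.

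In CD4 T cells Tlr2 and Tlr7 differed between mutant and WT libraries, and Tlr1 and Tlr6 were not called. Only levels had been planned for these tables, and the limma tests were added after the levels had been seen. In the libraries labelled KO, Elf4 was not lower (178 to 208 CPM, WT 186 to 195 CPM, -0.01 ± 0.07), so Elf4 RNA does not set these libraries apart from WT. Tlr3, Tlr4, Tlr8, Tlr9, Tlr13 and Cd14 had no row or did not pass the filter in any T cell table, which left 4 members tested, or 3 in non-pathogenic Th17 cells, where Tlr7 did not pass.

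Tlr7 was higher in both naive mutant sets. The libraries labelled KO were at 10, 11.7, 10.9 and 14.2 CPM and their WT libraries at 5.95, 4.31 and 4.89 CPM, a mean 2.32-fold higher (log2(CPM + 1) difference 1.07 ± 0.12, limma adjusted p = 0.000472). The W250S libraries were at 14.1, 12.2 and 16.8 CPM and their WT libraries at 6.16, 6.38 and 4.29 CPM, a mean 2.56-fold higher (1.22 ± 0.15, adjusted p = 4.08e-05). Groups did not overlap in either set. In pathogenic Th17 cells Tlr7 was at 0.825 to 1.18 CPM in W250S and 0.929 to 1.3 CPM in WT (-0.15 ± 0.12). Markers of B cells and plasmacytoid dendritic cells, which use TLR7, were set beside it. In the set labelled KO, the B cell markers in the table (Cd79a and Ms4a1) summed to 0.507 to 0.746 CPM and 0.286 to 0.448 CPM in WT, and the 3 listed plasmacytoid markers (Bst2, Tcf4 and Ccr9, of which T cells also express some) to 15.6 to 18.7 and 11.7 to 12.3 CPM. Siglech, the defining plasmacytoid marker, had no row. In the W250S set, with Cd79a the B cell marker in the table, the sums were 0.232 to 0.299 and 0.0644 to 0.305 CPM, and 16.9 to 19.4 and 12.7 to 13.8 CPM. Their part in the Tlr7 result was not tested.

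Tlr2 was lower in all 4 mutant T cell groups, at a low level. In naive cells it was at 1.31, 1.21, 1.32 and 0.881 CPM in libraries labelled KO and 2.36, 2.33 and 2.59 CPM in WT (-0.66 ± 0.11, limma adjusted p = 0.00491), and at 1.2, 1.23 and 1.71 CPM in W250S and 3.54, 2.97 and 3.8 CPM in WT (-0.90 ± 0.14, adjusted p = 0.000861). Pathogenic Th17 cells were at 1.12, 1.06 and 1 CPM in W250S and 2.54, 1.83 and 2.13 CPM in WT (-0.61 ± 0.12, adjusted p = 0.0237). Non-pathogenic Th17 cells were at 1.03, 1.09 and 0.868 CPM and 1.73, 1.62 and 1.92 CPM (-0.47 ± 0.11, adjusted p = 0.0345). Pathogenic and non-pathogenic libraries carry the same 6 leading numbers in their labels, so these sets may share animals. No mutant library reached a WT library of its own set, and mean ratios were 0.486, 0.401, 0.491 and 0.567. Numbering Th17 libraries as the table's columns do, the calls ended without W250S replicate 1 or 3 or WT replicate 1 in pathogenic cells (adjusted p = 0.0871, 0.135 and 0.0993), and without any 1 W250S replicate or WT replicate 3 in non-pathogenic cells (0.105, 0.116, 0.1 and 0.138).

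The macrophage marker sums moved with Tlr2 in 2 of these sets, and monocyte markers did not. The move was mainly in Itgam in W250S naive cells and in Cd68 in non-pathogenic Th17 cells. The macrophage markers in the table summed to 0.693 to 0.879 CPM in W250S and 1.5 to 1.8 CPM in WT naive cells, and to 0.704 to 1.03 and 1.45 to 1.54 CPM in non-pathogenic Th17 cells. They overlapped in the other sets (1.85 to 2.92 CPM in libraries labelled KO and 2.11 to 2.32 CPM in WT; 0.913 to 1.25 and 1.06 to 1.5 CPM in pathogenic Th17 cells). Of the 4 macrophage markers in the set labelled KO, Itgam was lower (0.565 to 0.844 CPM, WT 1.17 to 1.37 CPM), Csf1r was higher (0.0737 to 0.278 CPM, WT 0.0238 to 0.0276 CPM), and Cd68 (0.734 to 1.33 CPM, WT 0.782 to 0.877 CPM) and Lyz2 (0.202 to 0.856 CPM, WT 0.0001 to 0.246 CPM) overlapped. In the W250S naive set Itgam was at 0.15 to 0.398 CPM and 0.876 to 1.14 CPM in WT, and the other 3 overlapped. In non-pathogenic Th17 cells Cd68 was at 0.636 to 0.868 CPM in W250S and 1.16 to 1.37 CPM in WT, and Itgam overlapped. Csf1r was lower there but near the floor (at most 0.031 CPM, WT 0.0468 to 0.172 CPM). The monocyte markers Ly6c2 and Ccr2 summed to more in the mutant than in the WT libraries in the set labelled KO (1.43 to 2.26 CPM, WT 0.999 to 1.42 CPM), in W250S naive cells (1.76 to 3.2 CPM, WT 1.2 to 1.75 CPM) and in non-pathogenic Th17 cells (2.29 to 2.94 CPM, WT 1.94 to 2.18 CPM), and overlapped in pathogenic ones (1.7 to 2.44 CPM, WT 1.07 to 2 CPM). Conventional dendritic cell markers in pathogenic cells were at 0.774 to 0.907 CPM in W250S and 0.551 to 0.645 CPM in WT. Adgre1, Mertk and Fcgr1 had no row in the naive tables. The stromal markers in the tables summed to more in W250S Th17 cells (39.2 to 47.7 CPM against 19.9 to 29.1 CPM in pathogenic, 8.56 to 10.4 against 3.94 to 5.93 CPM in non-pathogenic cells). Nearly all of these sums was 1 gene, Lum (38.7 to 46.9 against 19.7 to 28.8 CPM, and 8.32 to 9.92 against 3.66 to 5.28 CPM). The others with a row (Col1a1, Pdgfrb and, in pathogenic cells, Dcn) reached at most 0.417 CPM and overlapped between genotypes. The part of these cells in the Tlr2 result was not tested. Among all tested genes the share called up and down was 4.38% and 3.64% in the set labelled KO, 3.29% and 0.856% in the W250S naive set, 0.900% and 1.17% in pathogenic and 4.13% and 2.94% in non-pathogenic Th17 cells, beside 1 and 1, 1 and 1, 0 and 1, and 0 and 1 of the tested members. With median-ratio scaling the calls over all genes were 208 up and 174 down in place of 407 and 106 in the W250S naive set, and 806 up and 908 down in place of 529 and 377 in non-pathogenic Th17 cells.

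**Figure D5:**
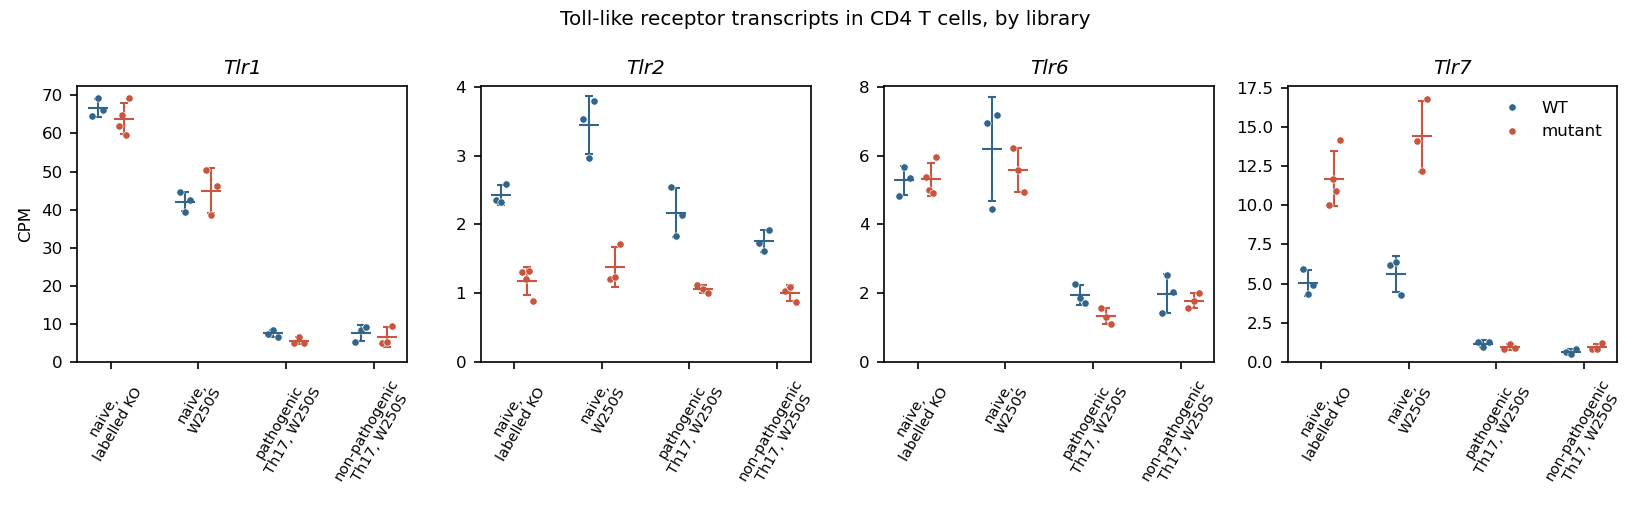
CPM of Tlr1, Tlr2, Tlr6 and Tlr7 (y axis from 0) in 4 CD4 T cell sets (x axis); points are libraries of WT (blue) and of the mutant group named below the axis (red), with mean and SD. Mutant libraries lie below WT for Tlr2 in every set and above WT for Tlr7 in both naive sets, while Tlr1 and Tlr6 overlap in the naive sets.

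Tlr1 and Tlr6 were not called in any T cell set. Tlr1 was at 59.7 to 69.2 CPM in naive libraries labelled KO and 64.5 to 69.2 CPM in WT, and at 5.01 to 6.65 CPM and 6.65 to 8.53 CPM in W250S and WT pathogenic Th17 cells (-0.38 ± 0.12, limma adjusted p = 0.122). Tlr6 was at 1.1 to 1.57 CPM and 1.72 to 2.27 CPM there (-0.34 ± 0.12, adjusted p = 0.158). Tlr6 groups did not overlap there, and the nearest Tlr1 libraries of the 2 groups were both at 6.65 CPM.

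Open chromatin (ATAC-seq) was measured in naive CD4 T cells, 3 libraries labelled KO and 3 WT, and is given without a test. The authors annotated peaks to Tlr1, Tlr2, Tlr3, Tlr6, Tlr7, Tlr9 and Cd14, and none of the table's peaks carried the names Tlr4, Tlr8 or Tlr13. The peak at the Tlr2 start, chr3:83841145-83841794 (mm10), spans the kappaB stretch printed above. It held 6.62, 7.32 and 10.4 CPM of the reads in peaks in WT and 7.22, 6.76 and 6.29 in libraries labelled KO, which overlapped. At the main Tlr7 start peak, chrX:167330371-167330887, WT libraries had 4.2, 3.51 and 3.71 and those labelled KO 4.67, 5.1 and 3.7 CPM of the reads in peaks, which also overlapped. The Tlr6 peak chr5:64959025-64960084, which spans the interferon-response stretch, had 31.7, 40.9 and 38.8 in WT and 41.8, 30.1 and 33.7 in libraries labelled KO, with overlap. The peak over the Tlr1 ETS-type stretch, chr5:64932456-64932963, had 0.646, 1.22 and 1.34 in WT and 1.17, 1.35 and 0.962 in libraries labelled KO, and that over the Tlr3 kappaB stretch, chr8:45410448-45410647, had 0.323, 0.457 and 0 and 0.657, 0.312 and 0.37, both with overlap. For some peaks or sums of peaks, given below, the groups did not overlap. The share over all 86911 peaks was not worked out, so this is not a result about the members. Libraries labelled KO were also deeper, with 13.7, 9.61 and 13.5 M reads in peaks against 6.19, 6.56 and 9.71 M in WT. The 2 Tlr2 peaks together had 7.43, 7.62 and 10.7 in WT and 7.37, 7.08 and 6.44 in libraries labelled KO, a narrow gap. The 2 Tlr3 peaks summed to 1.94, 1.22 and 1.65 in WT and 2.19, 2.6 and 2.74 in libraries labelled KO, the single Tlr9 peak had 0.808, 0.915 and 1.24 and 1.31, 1.67 and 1.41, and the Tlr6 peak chr5:64960753-64960877 had 0.162, 0 and 0.103 and 0.729, 0.833 and 0.37. The last 3 rest on few reads, for example 5 to 12 in WT and 16 to 19 in libraries labelled KO for the Tlr9 peak. The Cd14 peak chr18:36726652-36726800 had 0.162, 0.152 and 0.824 in WT and 0.146, 0.104 and 0.148 in libraries labelled KO. It rests on 1 to 8 reads per library.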

How the data were processed

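mRNA was measured in 43 libraries and open chromatin in 6. Per the file headers, RNA levels are CPM from the authors. Peak values deposited by the authors are estimated counts, nearly all whole, over a common set of peaks, and were only described. Per the submitters' processing notes mm10, BWA, Bowtie2, DESeq2, MACS2 and Partek 10.0.21.0411 were used, with roles not given in the sources used here. Low values step by what 1 read is worth, which gives about 11.0 to 16.0 M reads in listed genes per macrophage library and 23.4 to 37.6 M per T cell library. Some values are fractions of a read.

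log2(CPM + 1) was fitted with limma 3.58.1 in R 4.3.3 (eBayes with trend), two-sided, after dropping genes that did not reach 1 CPM in 3 or more libraries. The 18 macrophage libraries were fitted together with 6 group means, so the spread is shared by all times (17.3 degrees of freedom). Each T cell table was fitted alone, by tests added after the levels had been seen. A call means a p, adjusted by Benjamini-Hochberg over every tested gene, below 0.05. A difference on this scale understates the change of low genes. P-values measure the spread between these libraries. T cell tables held 19 to 20 rows whose gene names had become dates, and these were not used. On simulated data 96% of 200 genes changed by 2-fold were recovered in the comparison of KO with WT at 16 h over 11817 genes. The simulation drew every group from the untreated means, with a preset spread and independent libraries, and changed only genes above a minimum level. It therefore does not give the recovery of smaller changes or of low genes in the real libraries.

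The members, lists and motifs were chosen with earlier results of these data known. Besides the 10 members and Elf4, the text names up to 4 called genes of a list per comparison with the largest change, and the 3 genes most like each member (mean of at least 5 CPM, no predicted models). Alternatives were pseudocounts of 0.1 and 5, no filter and a filter of 5 CPM, median-ratio scaling, the compared groups alone, 2 forms of replicate block and each library left out.

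Replicate numbers were checked for pairing by correlating deviations from group means. KO and WT libraries of the same number did not vary together (r = -0.197 to 0.123). WT libraries of the same number did between 0 h and 4 h (0.171 to 0.245) and between 0 h and 16 h (0.108 to 0.307), as did KO between 0 h and 4 h (0.185 to 0.533). Between 0 h and 16 h, KO values were 0.0566 to 0.518. Within each genotype the stromal marker sums also ranked the replicate numbers in the same order at 0, 4 and 16 h. The headers give each library its own mouse number, so whether the times share animals or cultures is not settled.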

Additional observations from a re-analysis of the deposited data

Results flagged for a closer look

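For 5 members the KO effect in macrophages at 16 h differed from that at 0 h by a test of the difference itself (limma, adjusted over 12058 genes). The differences, log2 change at 16 h minus that at 0 h, were 0.66 for Tlr2, -1.23 for Tlr3, -1.13 for Tlr9, -0.65 for Tlr13 and -0.52 for Tlr1. In Tlr2 the effect was 0.20 at 0 h and 0.86 at 16 h, and in Tlr3 it was 0.14 and -1.08. Tlr9 went from 0.41 to -0.72, Tlr13 from -0.02 to -0.67 and Tlr1 from 0.23 to -0.29. Neither the Tlr9 nor the Tlr1 difference at 0 h was called, and without KO 0 h replicate 3 they were 0.094 and 0.10. Of 20 alternatives, Tlr3 was called in 20, Tlr2 in 19, Tlr13 in 14, Tlr9 in 11 and Tlr1 in 10. The calls of Tlr1, Tlr9 and Tlr13 ended without KO 0 h replicate 3, and also without KO 16 h replicate 2.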

How the results depend on the processing

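Calls of Tlr2, Tlr3 and Tlr13 between KO and WT at 16 h held under all 14 alternatives, with adjusted p at most 0.00144, 0.00105 and 0.00331; that of Tlr1 held in none of the 6 fits with 1 library left out, and those of Tlr6 and Tlr9 in 2 of 6 each. Depth (from 11.0 M reads per macrophage library) and 3 libraries per group limit what can be called at low levels.

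Members called: at 4 h (KO against WT) 1 in place of 0 with a filter of 5 CPM, the additive replicate block and the genotype and replicate block (Cd14); at 16 h 3 to 4 with 1 library left out; in the 16 h interaction 1 to 6. In pathogenic and in non-pathogenic Th17 cells the range was 0 to 1. All genes called, KO against WT at 0 h (53): 103 with a pseudocount of 5, 31 with median-ratio scaling, 1 with the compared groups alone, 103 with the additive replicate block, 18 to 95 with 1 library left out. At 4 h (505): 248 with the groups alone and 247 to 473 with 1 library left out. Interaction at 4 h (1): 6 with a pseudocount of 5, 0 with the groups alone, 4 and 28 with the additive and the genotype and replicate block, and 0 to 40. Interaction at 16 h (778): 1191 and 1543 with these replicate blocks, and 282 to 1031. T cells: the block gave 1592 in the set labelled KO (1034) and 1256 in the W250S naive set (513), and leave-outs 454 to 1378 and 203 to 556. Mutant and WT libraries of the same number correlated at r = -0.0387 to 0.164 in the set labelled KO and at 0.033 to 0.324 in the W250S naive set. Pathogenic Th17 cells ranged from 42 to 372. Non-pathogenic Th17 (906) ranged from 54 to 2110, with 1714 under median-ratio scaling. The block changed no other call of a member except Tlr7 in the 16 h interaction (adjusted p = 0.0431).

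Directions turned with median-ratio scaling for Tlr8 (WT 4 h 0.46, KO 4 h 0.33, KO 16 h 0.24, KO against WT at 4 h -0.0049), Tlr7 (WT 16 h 0.23) and Tlr9 (KO 4 h 0.55, KO 16 h 0.31), and with the replicate block for Tlr6 in the set labelled KO (-0.042). With 1 library left out, uncalled values crossed 0. KO against WT at 0 h: Tlr6 -0.048 to 0.19, Tlr8 -0.074 to 0.24, Tlr13 -0.11 to 0.089, Cd14 -0.14 to 0.018. At 4 h: Tlr1 -0.11 to 0.063, Tlr7 -0.088 to 0.028, Tlr8 -0.027 to 0.14. KO with LPS: Tlr7 at 4 h -0.02 to 0.30, Tlr9 at 4 h -0.47 to 0.032 and at 16 h -0.22 to 0.28, Tlr8 at 16 h -0.22 to 0.095. Interaction at 4 h: Tlr4 -0.13 to 0.018, Tlr8 -0.19 to 0.13, Tlr13 -0.19 to 0.011; at 16 h Cd14 -0.11 to 0.044. Tlr6 in T cells: -0.047 to 0.051 (labelled KO) and -0.24 to 0.04 (non-pathogenic Th17). The cause was not tested. A count test on recovered reads was not run, since values are not whole reads throughout.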
